A study of Mus musculus with 26 samples.

Results

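The genes described here encode chemokines and their receptors in the mouse mammary gland. They were taken from the symbols of the array annotation, as every gene named Ccl, Cxcl, Ccr or Cxcr with a number, apart from Ccl28 and Ccr10. This gave 43 of the 18193 genes with a probe set of 1 symbol, of which 30 were ligands and 13 were receptors. They had 65 probe sets between them. Where a gene had several probe sets, the one brightest on average stands for it, 28 genes had only 1, and Ccl19 and Ccl21 were left out because their probe sets carry several symbols.

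Chemokines are small secreted proteins that draw leukocytes along a gradient, and they act through receptors that couple to inhibitory G proteins. Some are made constantly and place lymphocytes within tissues, while others are induced in inflammation and recruit monocytes, neutrophils or T cells. In the mammary gland, leukocytes take part in duct growth during pregnancy, in the supply of antibodies to milk and in defence against infection.

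Total RNA came from the inguinal mammary gland of 26 mice, with 1 Affymetrix mouse expression array per sample. The groups were AIL mice with code AQ (5 arrays) and with code AC (5 arrays), QSi5 (3) and CBA/CaH (3), all on day 9 of lactation, and QSi5 (5) and CBA/CaH (5) on day 12 of pregnancy. AIL is an Advanced Intercross Line of CBA/CaH and QSi5 in its 14th generation, so its mice are genetically mixed, whereas the other groups are each 1 strain. What AC and AQ stand for, and the ages of the mice, are not given in the sources used here. No treatment is named, and the whole gland was sampled, so every value is a mixture of epithelium, fat, stroma, vessels and leukocytes.

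All levels below are log2 values after RMA, which corrects background, normalizes and joins the probes of a set, and a difference of 1 is a 2-fold change. The array medians still differed, at 5.2617 to 5.2974 in lactating QSi5 and 5.2547 to 5.2735 in lactating CBA/CaH mice, against 4.9957 to 5.1368 and 5.0505 to 5.1426 in pregnant mice of these strains. A level may be set against another only within 1 gene. As a yardstick of low signal, 39 olfactory receptor genes, which are thought to be largely silent outside the nose, had means of 3.61 to 6.31, with a 95th percentile of 5.76. Of the 43 chemokine and receptor genes, 19 had every group mean under 5.76 and 13 had every group mean above it. The heat map of all 43 genes on the 26 arrays shows the main split, between the lactation and the pregnancy arrays.

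**Figure D1:**
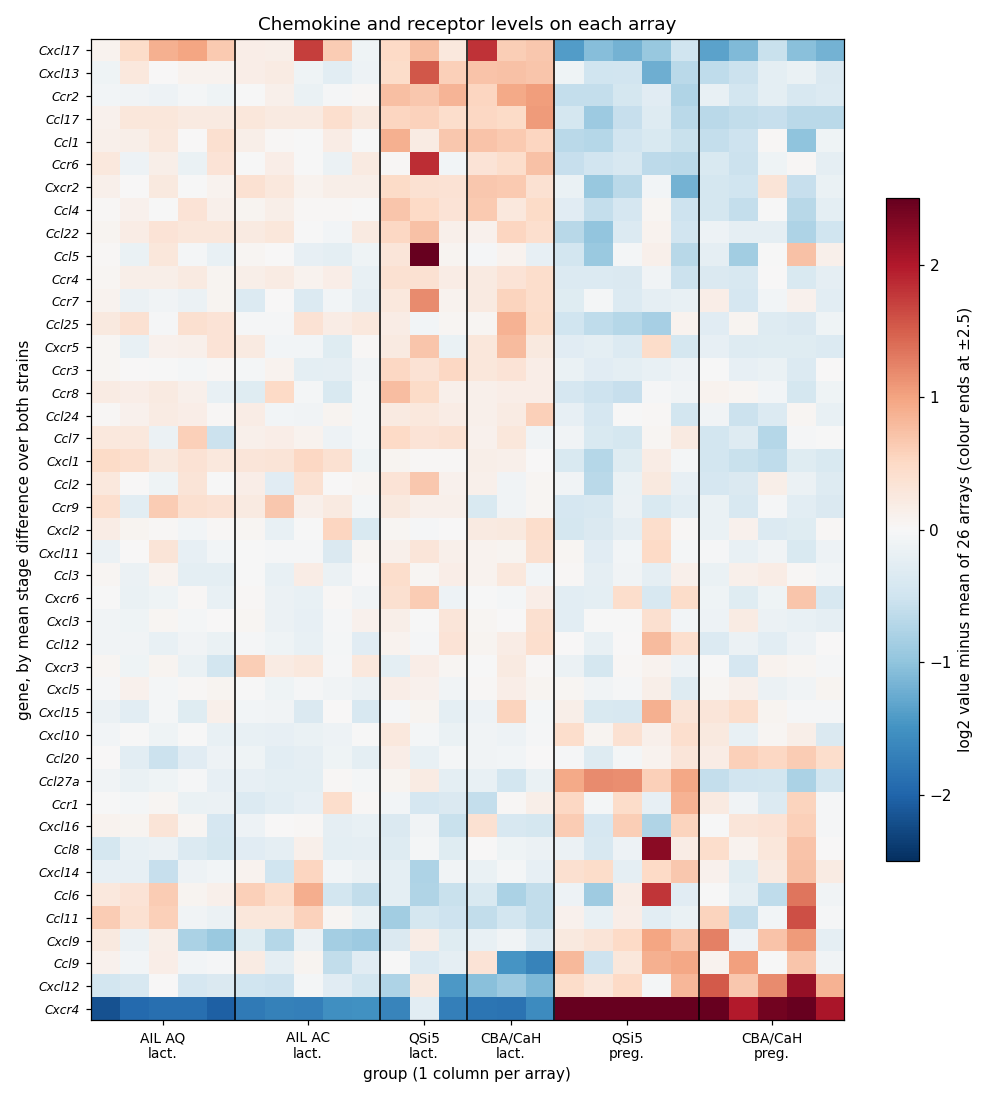
Each row is 1 of the 43 genes and each column 1 array, grouped as AIL AQ, AIL AC, QSi5 and CBA/CaH at lactation and QSi5 and CBA/CaH at pregnancy, with the colour giving the log2 value minus the gene's mean over 26 arrays (colours end at ±2.5). Cxcr4 and Cxcl12 are lowest on lactation arrays, Cxcl17, Cxcl13 and Ccr2 are lowest on pregnancy arrays, and Ccl5, Ccr6 and Ccr7 stand out on the second lactation QSi5 array.

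Some arrays differ in cell or RNA content, and values without 1 such array are given where leaving it out changed a call or moved a described difference strongly. On pregnant QSi5 array 4, Gapdh read 6.497 higher at its 3' end than at its 5' end. Brown adipocyte markers were high on pregnant CBA/CaH arrays 3 and 5, and skeletal muscle markers on pregnant QSi5 arrays 3 and 5 and on AIL AC array 1, which makes 6 arrays that stand apart. On lactating QSi5 array 2, the median of T and NK cell markers was 0.844 above its mean over all arrays, and that of B and plasma cell markers 1.052 above it. None of the 12 luminal epithelial markers had a group mean under 5.76 at pregnancy, and of 9 milk genes 7 were called higher at lactation in QSi5 and 6 in CBA/CaH. At lactation 3 of the luminal markers had means under 5.76 in QSi5 and 2 in CBA/CaH.

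The first comparison was of lactation with mid-pregnancy in each parental strain. Among chemokines and receptors, 13 genes were higher at lactation in both strains (Ccl1, Ccl4, Ccl17, Ccl22, Ccl24, Ccl25, Cxcl13, Cxcl17, Ccr2, Ccr3, Ccr4, Ccr7 and Cxcr2), and Cxcl12 and Cxcr4 were lower in both. In QSi5, 24 of 43 were called at an adjusted p under 0.05, 19 higher and 5 lower. In CBA/CaH, 22 were called, 16 higher and 6 lower. Of all genes, 65.7% were called in QSi5 (33.0% higher, 32.7% lower) and 60.0% in CBA/CaH (30.4% higher, 29.5% lower). The share of chemokine and receptor genes called, 55.8% in QSi5 and 51.2% in CBA/CaH, was thus below that of all genes in both strains. Leaving out 1 array gave 19 to 27 calls in QSi5 and 14 to 22 in CBA/CaH, where the lowest count came without lactating array 2.

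The groups of 20 genes did not overlap between the stages in QSi5, against 57.3% of all genes, and those of 23 genes in CBA/CaH, against 58.5%. The median difference over the 43 genes was 0.30 in QSi5 and 0.25 in CBA/CaH, beside 0.04 and 0.05 over all genes. That direction went with low signal across the whole array. All genes with a mean under 6 had a median difference of 0.39 in QSi5 and 0.36 in CBA/CaH, and those at 6 or over had -0.57 and -0.49. Of the chemokine and receptor genes, 28 had a mean under 6, with a median difference of 0.36 in QSi5 and 0.32 in CBA/CaH, close to that of all genes at those levels. The other 15 had a median of -0.02 in QSi5 and -0.33 in CBA/CaH. Among these 15, 6 were called higher in each strain, while 17.6% of all genes at 6 or over were called higher in QSi5 and 16.4% in CBA/CaH.

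**Figure D2:**
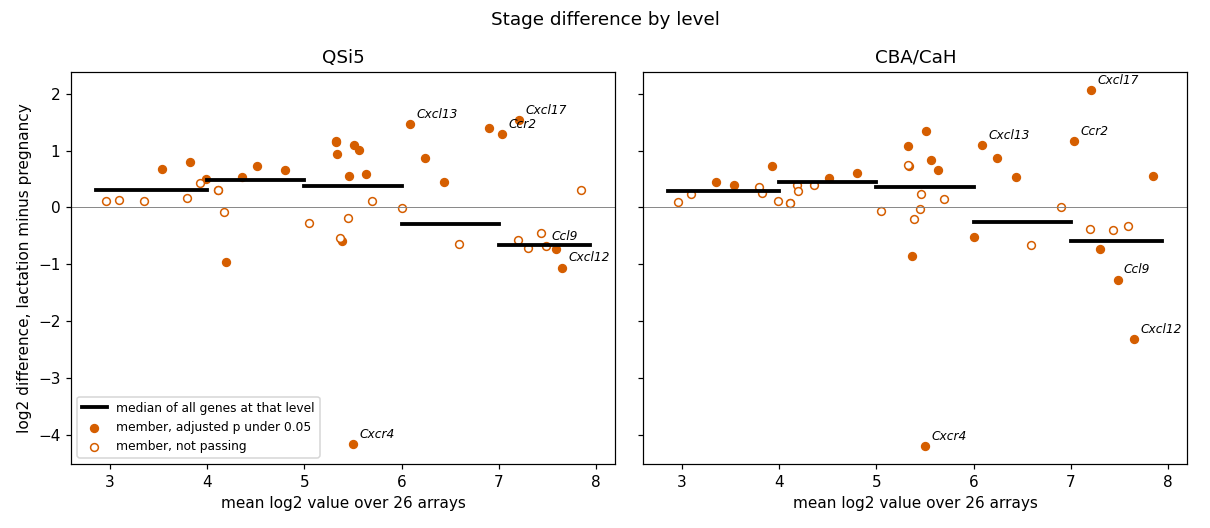
The log2 difference, lactation minus pregnancy, of each of the 43 genes is plotted against its mean log2 value over 26 arrays, for QSi5 on the left and CBA/CaH on the right, with filled points for an adjusted p under 0.05. Black bars give the median of all genes in that range of levels, which lies above 0 for means under 6 and below 0 above them, and Cxcr4 lies far under its bar while Cxcl17, Ccr2 and Cxcl13 lie over theirs.

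Among genes that place lymphocytes and stem cells in tissues, the receptor Cxcr4 had the largest stage difference of the 43 genes in both strains. Cxcr4 is the receptor of Cxcl12, which stromal cells make. It read 3.85, 5.24 and 3.80 in lactating QSi5 mice, against 8.46, 9.10, 8.53, 8.03 and 8.16 in pregnant QSi5 mice. It read 3.67, 3.65 and 3.92 in lactating CBA/CaH mice, against 8.62, 7.49, 7.91, 8.17 and 7.54 in pregnant CBA/CaH mice. No lactation array came near a pregnancy array, although lactating QSi5 array 2, the one with high lymphocyte markers, was the highest of its group. Cxcr4 fell by 4.16 (SE 0.33, adjusted p = 1.28e-07) in QSi5, which is 17.9-fold, and by 4.20 (SE 0.33, adjusted p = 1.82e-07) in CBA/CaH, which is 18.3-fold. Both lactation means lay under 5.76, among the olfactory receptor genes, where a smaller amount may not read lower. Over the alternatives and with each array left out, the difference stayed between -4.63 and -3.91 in QSi5 and between -4.47 and -4.03 in CBA/CaH. In whole tissue, fewer cells of a type and less RNA per cell cannot be told apart.

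Cxcl12, the ligand of Cxcr4, read 6.88, 7.89 and 6.22 in lactating QSi5 mice, against 8.12, 7.93, 8.15, 7.61 and 8.49 in pregnant QSi5 mice. It read 6.61, 6.74 and 6.54 in lactating CBA/CaH mice, against 9.19, 8.33, 8.83, 9.84 and 8.52 in pregnant CBA/CaH mice. In CBA/CaH the groups were far apart, and in QSi5 lactating array 2 lay among the pregnancy arrays. Cxcl12 fell by 2.31 (SE 0.35, adjusted p = 7.36e-05) in CBA/CaH and by 1.06 (SE 0.35, adjusted p = 0.0155) in QSi5. The QSi5 call was lost without lactating array 1 (-1.0, adjusted p = 0.0541) or 3 (-0.67, adjusted p = 0.12), after cyclic loess (-0.49, adjusted p = 0.247) or quantile normalization (-0.45, adjusted p = 0.311), and with the mean of the gene's probe sets (-0.46, adjusted p = 0.131). The strain by stage interaction was 1.25 (SE 0.49, adjusted p = 0.851), so the strains were not shown to differ. The gene's other probe sets did not run the same way. One fell by 1.39 in QSi5 (adjusted p = 0.0419) and fell by 2.12 in CBA/CaH (adjusted p = 0.00513), while the one with the lowest mean, 6.09, rose by 1.08 (adjusted p = 3.58e-05) and 0.91 (adjusted p = 0.000213).

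Many markers of stromal and vessel cells, in which Cxcl12 is known to be made, fell as its brightest probe set did. Of all genes, 32.7% were called lower in QSi5 and 29.5% in CBA/CaH. Of those with a mean of 6 or over, 50.1% and 46.3% were. Of 11 fibroblast and matrix markers, 8 fell at lactation in each strain and none rose. Their summed level, as log2, was 11.52 to 12.55 in lactating QSi5 mice and 13.56 to 14.52 in pregnant ones, and 11.79 to 11.82 in lactating CBA/CaH mice and 12.66 to 14.67 in pregnant ones. Of 11 endothelial markers, 7 fell in each strain, with sums of 9.80 to 9.99 against 10.79 to 11.60 in QSi5 and of 9.83 to 9.93 against 10.03 to 11.47 in CBA/CaH. At lactation, 2 of the fibroblast markers had means under 5.76 in each strain, and 6 of the endothelial markers in QSi5 and 5 in CBA/CaH. The part of these marker lists in the fall of Cxcl12 was not tested.

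Cxcl13, the ligand of Cxcr5 that gathers B cells into follicles, moved the other way. It read 6.55, 7.64 and 6.68 in lactating QSi5 mice, against 5.98, 5.59, 5.61, 4.86 and 5.41 in pregnant QSi5 mice. It read 6.79, 6.81 and 6.77 in lactating CBA/CaH mice, against 5.45, 5.55, 5.85, 5.91 and 5.73 in pregnant CBA/CaH mice. Every lactation array lay above every pregnancy array of its strain. Cxcl13 rose by 1.47 (SE 0.24, adjusted p = 0.000132) in QSi5 and by 1.09 (SE 0.24, adjusted p = 0.00176) in CBA/CaH. Without lactating QSi5 array 2 the difference was 1.13. A dimmer second probe set, with a mean of 4.03, gave 1.51 in QSi5 (adjusted p = 0.0586) and -0.09 in CBA/CaH (adjusted p = 0.918).

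Cxcr5, the receptor of Cxcl13 on B cells and follicular T cells, was dim, with every group mean under 5.76. It read 4.16, 4.62 and 3.76 in lactating QSi5 mice, against 3.65, 3.68, 3.58, 4.39 and 3.48 in pregnant QSi5 mice. It read 4.20, 4.71 and 4.18 in lactating CBA/CaH mice, against 3.72, 3.60, 3.63, 3.62 and 3.59 in pregnant CBA/CaH mice, and the 10 AIL mice spanned 3.62 to 4.26 (median 3.96). The groups were separate in CBA/CaH and overlapped in QSi5. Cxcr5 rose by 0.73 (SE 0.21, adjusted p = 0.00903) in CBA/CaH, a call lost without lactating array 2 (0.56, adjusted p = 0.0638), and the difference in QSi5 was 0.42 (SE 0.21, adjusted p = 0.0933). That of Cxcr5 in QSi5 was called without pregnant array 4 (0.58, adjusted p = 0.00879) or lactating array 3 (0.63, adjusted p = 0.0267).

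Ccr7, which guides dendritic cells and naive T cells to lymph nodes, was dim as well. It read 4.78, 5.69 and 4.60 in lactating QSi5 mice, against 4.22, 4.46, 4.17, 4.28 and 4.33 in pregnant QSi5 mice. It read 4.74, 5.07 and 4.96 in lactating CBA/CaH mice, against 4.67, 4.10, 4.44, 4.63 and 4.24 in pregnant CBA/CaH mice. The stages did not overlap in either strain. Ccr7 rose by 0.73 (SE 0.21, adjusted p = 0.0065) in QSi5 and by 0.51 (SE 0.21, adjusted p = 0.0486) in CBA/CaH, but the QSi5 value was 0.40 (adjusted p = 0.0542) without lactating array 2, and in CBA/CaH the call held in only 2 of the 8 fits that left out 1 array. Cyclic loess gave 0.31 (adjusted p = 0.255) in QSi5 and 0.14 (adjusted p = 0.627) in CBA/CaH.

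Some lymphocyte markers rose beside these genes, more of them in QSi5 than in CBA/CaH. Of all genes, 33.0% were called higher in QSi5 and 30.4% in CBA/CaH. The B and plasma cell markers had a median difference of 1.61 in QSi5 and 0.56 in CBA/CaH. Those of T and NK cells had 0.52 and -0.06. Among 9 genes typical of B and plasma cells, 8 rose in QSi5 and 4 in CBA/CaH, and none fell. Their log2 sums were 13.17 to 13.64 in lactating QSi5 mice and 10.37 to 11.27 in pregnant ones, and 12.03 to 13.55 in lactating CBA/CaH mice and 10.45 to 13.87 in pregnant ones. Among 12 genes typical of T and NK cells, 7 rose in QSi5 and 3 in CBA/CaH, with sums of 9.99 to 10.67 against 9.33 to 9.90 in QSi5 and of 9.97 to 10.06 against 9.64 to 10.15 in CBA/CaH. Lymph node stroma and vessel markers gave 7 higher and 2 lower of 10 in QSi5 and 5 higher and 1 lower in CBA/CaH. At lactation 6 of them had means under 5.76 in QSi5 and 7 in CBA/CaH. The log2 sums of the 10 were still 14.73 to 14.82 in lactating QSi5 mice and 14.78 to 14.84 in lactating CBA/CaH mice. The brighter genes of the list thus carry the sum. Cells outside lymph nodes may express some genes of the list, such as Glycam1 and Tnfsf11, which was not tested. Of the B cell markers, 2 had means under 5.76 at lactation in QSi5 and 4 in CBA/CaH. Of the T cell markers, 4 and 6 did. The part of these markers in the rise of Cxcl13, Cxcr5 and Ccr7 was not tested.

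The 250 bases before the RefSeq start of Cxcr4, Cxcl12 and Cxcl13 are shown because these 3 genes carry the changes in the Cxcl12 and Cxcl13 pathways, in opposite directions. They are on build GRCm38.p6, on the gene's own strand, at chr1:128592300-128592549 (minus strand) for Cxcr4, chr6:117168285-117168534 (plus strand) for Cxcl12 and chr5:95956689-95956938 (plus strand) for Cxcl13. Capitals mark letters searched on both strands. One is TATAAA, bound by the general transcription machinery. The GC box is GGGCGG, and TTCNNNGAA is bound by STAT factors.
Cxcr4: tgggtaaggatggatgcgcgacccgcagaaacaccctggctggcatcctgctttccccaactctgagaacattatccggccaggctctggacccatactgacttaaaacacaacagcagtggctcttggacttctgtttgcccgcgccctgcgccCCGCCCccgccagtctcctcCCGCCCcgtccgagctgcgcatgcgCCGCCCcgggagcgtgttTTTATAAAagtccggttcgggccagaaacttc
Cxcl12: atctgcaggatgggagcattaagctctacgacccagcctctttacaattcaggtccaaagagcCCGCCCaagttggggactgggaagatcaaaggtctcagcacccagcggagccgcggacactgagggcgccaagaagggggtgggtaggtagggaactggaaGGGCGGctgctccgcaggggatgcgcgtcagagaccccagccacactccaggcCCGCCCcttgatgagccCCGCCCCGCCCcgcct
Cxcl13: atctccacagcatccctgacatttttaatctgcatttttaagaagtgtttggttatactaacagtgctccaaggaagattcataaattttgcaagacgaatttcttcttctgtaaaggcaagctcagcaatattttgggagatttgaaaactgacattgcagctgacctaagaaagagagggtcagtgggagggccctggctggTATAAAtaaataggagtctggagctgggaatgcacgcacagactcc
The Cxcr4 window held 3 GC boxes and TATAAA on both strands at 1 place, where the 2 matches overlap. The Cxcl12 window held 5 GC boxes, of which the last 2 overlap, and no TATAAA. The Cxcl13 window held 1 TATAAA and no GC box. No window of the 3 held TTCNNNGAA. RefSeq's promoter table had 31 of the 43 genes. TATAAA was found for 9 of the 31 and in 12.4% of all 32851 windows, GGGCGG for 4 of the 31 and in 32.7% of all windows, and TTCNNNGAA for 3 of the 31 (Ccl17, Cxcl14 and Ccr6) and in 7.02%. A match describes the letters and is not a shown binding site.

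Of the 5 ligands and receptors of type 2 and regulatory T cells, all were called higher in QSi5 and 4 in CBA/CaH, where Ccr8 did not pass the test. Their median differences were 0.94 and 0.73. All 5 had means under 6 over the 26 arrays, and of all genes at those levels 50.6% were called higher in QSi5 and 46.6% in CBA/CaH. Ccl17 and Ccl22, which dendritic cells and macrophages make, are ligands of Ccr4. Ccl17 read 6.04, 6.08 and 5.94 in lactating QSi5 mice, against 5.06, 4.60, 4.94, 5.19 and 4.84 in pregnant QSi5 mice. It read 6.03, 5.99 and 6.57 in lactating CBA/CaH mice, against 4.83, 4.90, 4.93, 4.83 and 4.83 in pregnant CBA/CaH mice. The stages were separate in both strains. Ccl17 rose by 1.09 (SE 0.15, adjusted p = 2.21e-05) in QSi5 and by 1.34 (SE 0.15, adjusted p = 5e-06) in CBA/CaH.

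Ccl22 read 5.86, 6.07 and 5.47 in lactating QSi5 mice, against 4.65, 4.36, 5.00, 5.42 and 4.86 in pregnant QSi5 mice. Its CBA/CaH values were 5.45, 5.87 and 5.75 in lactating CBA/CaH mice, against 5.21, 5.11, 5.11, 4.56 and 4.84 in pregnant CBA/CaH mice, and the 10 AIL mice spanned 5.27 to 5.67 (median 5.56). Both strains again had no overlap. The rise was 0.94 (SE 0.22, adjusted p = 0.00183) in QSi5 and 0.73 (SE 0.22, adjusted p = 0.0115) in CBA/CaH, lost in CBA/CaH without lactating array 2 (0.64, adjusted p = 0.055) and after cyclic loess (0.41, adjusted p = 0.115). Their receptor Ccr4 had means of 5.13 in lactating and 4.47 in pregnant QSi5 mice and of 5.14 in lactating and 4.53 in pregnant CBA/CaH mice, and rose by 0.66 (SE 0.13, adjusted p = 0.000457) and 0.61 (SE 0.13, adjusted p = 0.00103) with no overlap.

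Ccl1, a ligand of Ccr8 made by activated T cells, read 6.22, 5.54 and 6.0 in lactating QSi5 mice, against 4.66, 4.62, 4.86, 4.95 and 4.78 in pregnant QSi5 mice. Its CBA/CaH values were 6.04, 5.99 and 5.87 in lactating CBA/CaH mice, against 4.73, 4.81, 5.36, 4.33 and 5.23 in pregnant CBA/CaH mice. It rose by 1.15 (SE 0.20, adjusted p = 0.000239) in QSi5 and by 1.08 (SE 0.20, adjusted p = 0.000529) in CBA/CaH, again without overlap. Ccr8 itself was near the floor, at 4.60, 4.31 and 3.95 in lactating QSi5 mice, against 3.40, 3.31, 3.25, 3.79 and 3.73 in pregnant QSi5 mice. In CBA/CaH it read 3.95, 3.99 and 4.00 in lactating CBA/CaH mice, against 3.92, 3.88, 3.76, 3.39 and 3.72 in pregnant CBA/CaH mice. Its rise in QSi5 was 0.79 (SE 0.17, adjusted p = 0.00103), and the difference in CBA/CaH was 0.25 (SE 0.17, adjusted p = 0.224). Dendritic cell markers, which include Ccl22, gave 5 higher and 1 lower of 9 in QSi5 and 6 higher and 1 lower in CBA/CaH, yet their log2 sums were 9.17 to 10.06 against 10.10 to 11.37 in QSi5 and 9.26 to 9.36 against 9.89 to 10.68 in CBA/CaH, so the sum moved against most of its genes.

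**Figure D3:**
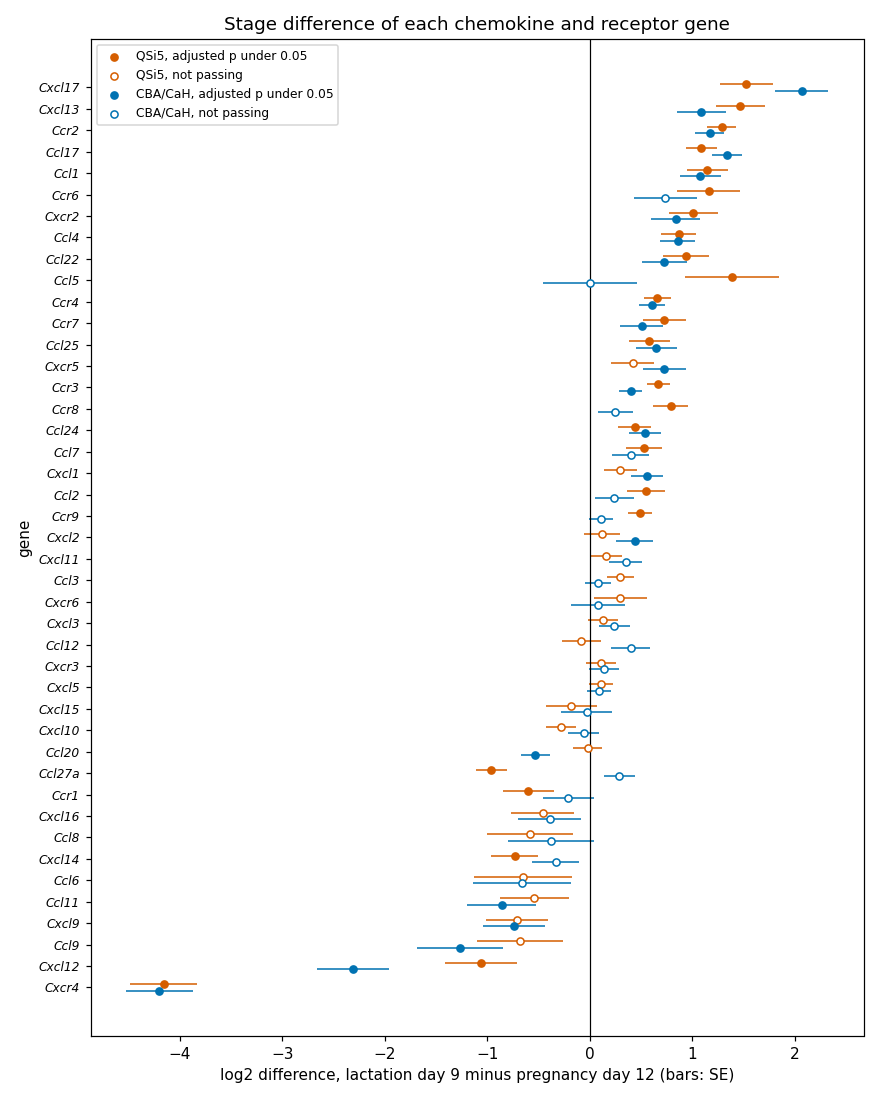
The log2 difference, lactation day 9 minus pregnancy day 12, is shown for the 43 genes in QSi5 (orange) and CBA/CaH (blue), with bars of 1 SE and filled points for an adjusted p under 0.05. Cxcr4 lies near -4 in both strains, Cxcl12 lies at -1.06 in QSi5 and -2.31 in CBA/CaH, and Ccl5 and Ccl27a passed the test in QSi5 and not in CBA/CaH.

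Of the monocyte genes, the receptor had the largest difference. Ccr2, which brings monocytes out of the marrow and into tissues, read 7.78, 7.69 and 7.88 in lactating QSi5 mice, against 6.43, 6.42, 6.59, 6.75 and 6.28 in pregnant QSi5 mice. It read 7.56, 7.98 and 8.07 in lactating CBA/CaH mice, against 6.84, 6.57, 6.79, 6.62 and 6.68 in pregnant CBA/CaH mice. The stages were widely separate. Ccr2 rose by 1.29 (SE 0.14, adjusted p = 2.33e-06) in QSi5 and by 1.17 (SE 0.14, adjusted p = 8.58e-06) in CBA/CaH, and stayed called in each of the alternatives and with each array left out. Its 3 other probe sets were dimmer, and 1 of them rose, by 0.57 in QSi5 (adjusted p = 0.00173) and by 0.62 in CBA/CaH (adjusted p = 0.00124). The remaining pair were not called. In QSi5 they gave 0.26 (adjusted p = 0.329) and 0.35 (adjusted p = 0.0847), and in CBA/CaH -0.07 (adjusted p = 0.798) and 0.12 (adjusted p = 0.572).

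Ccl2, the main ligand of Ccr2, read 5.80, 6.13 and 5.56 in lactating QSi5 mice, against 5.37, 4.79, 5.29, 5.71 and 5.25 in pregnant QSi5 mice. It read 5.58, 5.37 and 5.50 in lactating CBA/CaH mice, against 5.04, 5.10, 5.60, 5.31 and 5.13 in pregnant CBA/CaH mice, and the 10 AIL mice spanned 5.18 to 5.84 (median 5.49). The groups overlapped in both strains. Ccl2 rose by 0.55 (SE 0.19, adjusted p = 0.0201) in QSi5, which was 0.40 (adjusted p = 0.121) without lactating array 2, and the difference was 0.24 (SE 0.19, adjusted p = 0.283) in CBA/CaH. Ccl7, a related ligand with every group mean under 5.76, rose by 0.53 (SE 0.18, adjusted p = 0.0184) in QSi5 and differed by 0.40 (SE 0.18, adjusted p = 0.0703) in CBA/CaH.

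Ccl8 and Ccl12 were not called in either strain. Ccl8, a monocyte ligand of tissue macrophages, read 6.88, 7.16 and 6.90 in lactating QSi5 mice, against 7.06, 6.81, 7.08, 9.45 and 7.38 in pregnant QSi5 mice. It read 7.21, 7.10 and 7.06 in lactating CBA/CaH mice, against 7.64, 7.28, 7.48, 7.91 and 7.22 in pregnant CBA/CaH mice, and the 10 AIL mice spanned 6.76 to 7.32 (median 6.97). The pregnant QSi5 array with the high Gapdh value held the highest level by far. The difference was -0.58 (SE 0.42, adjusted p = 0.251) in QSi5 and -0.38 (SE 0.42, adjusted p = 0.456) in CBA/CaH. Without that pregnant array, number 4, the QSi5 value was -0.10 (adjusted p = 0.605). When the 6 arrays that stand apart were dropped, the CBA/CaH difference was -0.49 (adjusted p = 0.0274). Ccl12 read 4.26, 4.15 and 4.53 in lactating QSi5 mice, against 4.19, 3.99, 4.20, 4.98 and 4.61 in pregnant QSi5 mice. It read 4.24, 4.36 and 4.61 in lactating CBA/CaH mice, against 3.83, 4.03, 3.92, 4.06 and 4.20 in pregnant CBA/CaH mice. Its differences were -0.08 (SE 0.19, adjusted p = 0.745) in QSi5, where the value was 0.07 (adjusted p = 0.705) without pregnant array 4, and 0.40 (SE 0.19, adjusted p = 0.0917) in CBA/CaH.

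Of all genes, 32.7% were called lower in QSi5 and 29.5% in CBA/CaH. Of those with a mean of 6 or over, 50.1% and 46.3% were. Among macrophage and monocyte markers, more fell than rose, whereas Ccr2 rose. Of 11, 5 fell and 1 rose in QSi5, and 6 fell and 1 rose in CBA/CaH. Their log2 sums were 11.35 to 11.82 in lactating QSi5 mice and 11.66 to 12.59 in pregnant ones, and 11 to 12.89 in lactating CBA/CaH mice and 11.30 to 13.03 in pregnant ones. The sums of the stages overlapped in both strains. At lactation 4 of the 11 markers had means under 5.76 in each strain.

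**Figure D4:**
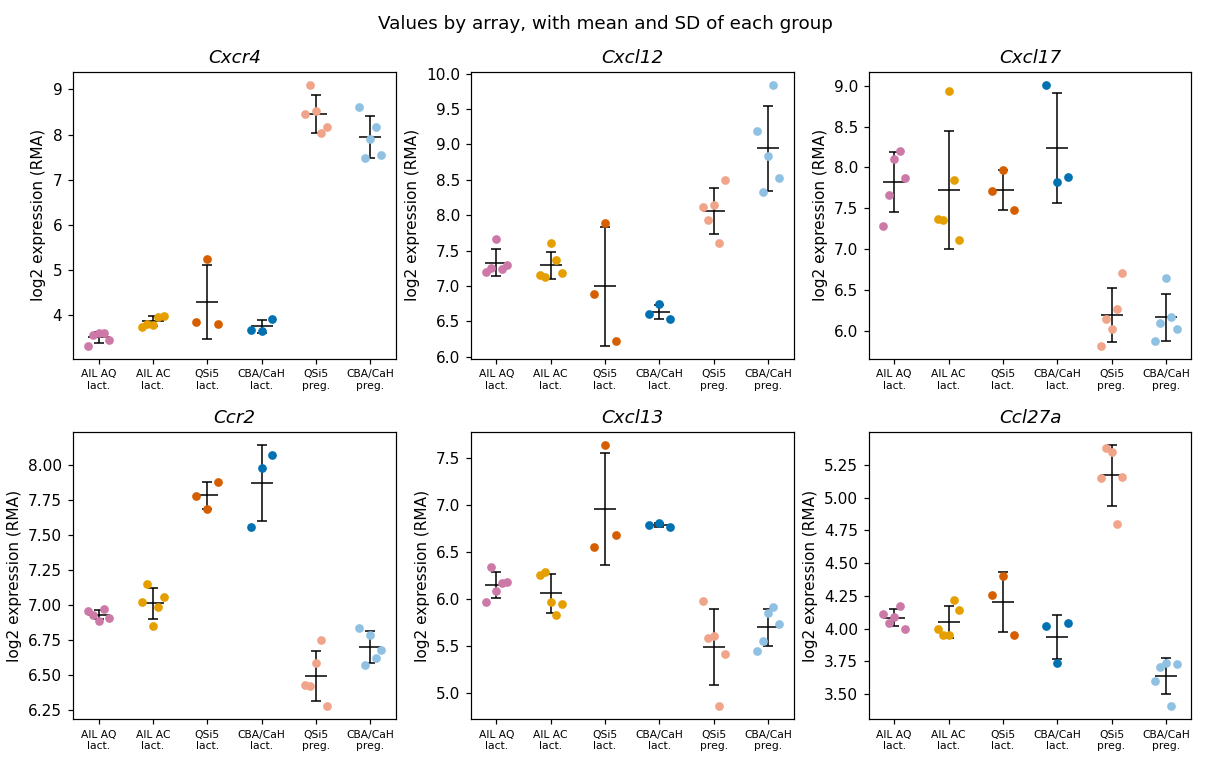
Each point is the log2 value of 1 array for Cxcr4, Cxcl12, Cxcl17, Ccr2, Cxcl13 and Ccl27a in the 6 groups, with a dash at the group mean and bars of 1 SD (n = 5, 5, 3, 3, 5 and 5 from left to right). Ccr2 is highest in the QSi5 and CBA/CaH lactation groups with AIL between them and pregnancy, and Ccl27a is high in pregnant QSi5 mice only.

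The neutrophil ligands carry an ELR motif and act on Cxcr2. Of 6 genes in this group, 1 rose in QSi5 and 3 in CBA/CaH, and none fell. Beside them, 33.0% of all genes were called higher and 32.7% lower in QSi5, and 30.4% and 29.5% in CBA/CaH. The receptor Cxcr2 read 6.03, 5.94 and 5.92 in lactating QSi5 mice, against 5.39, 4.61, 4.89, 5.50 and 4.37 in pregnant QSi5 mice. It read 6.23, 6.22 and 5.95 in lactating CBA/CaH mice, against 5.13, 5.07, 5.88, 4.98 and 5.40 in pregnant CBA/CaH mice. No array of 1 stage entered the range of the other in either strain. Cxcr2 rose by 1.01 (SE 0.24, adjusted p = 0.00244) in QSi5 and by 0.84 (SE 0.24, adjusted p = 0.00944) in CBA/CaH. Neutrophil markers moved with it, 5 of 9 higher in each strain and 1 lower in CBA/CaH, with log2 sums of 8.83 to 8.95 against 8.07 to 8.80 in QSi5 and of 8.77 to 8.90 against 8.35 to 8.62 in CBA/CaH. At lactation 4 of the 9 had means under 5.76 in QSi5 and 6 in CBA/CaH, and at pregnancy 8 and 6. Their higher calls stand beside the 50.6% and 46.6% of all genes with a mean under 6. The part of these markers in the rise of Cxcr2 was not tested.

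Cxcl1, a neutrophil ligand that epithelium also makes, read 7.91, 7.87 and 7.87 in lactating QSi5 mice, against 7.45, 7.13, 7.53, 8.02 and 7.79 in pregnant QSi5 mice. It read 7.99, 7.96 and 7.85 in lactating CBA/CaH mice, against 7.37, 7.29, 7.21, 7.53 and 7.46 in pregnant CBA/CaH mice, and the 10 AIL mice spanned 7.74 to 8.35 (median 8.19). The stages were separate in CBA/CaH and overlapped in QSi5. Cxcl1 rose by 0.56 (SE 0.16, adjusted p = 0.00792) in CBA/CaH and differed by 0.30 (SE 0.16, adjusted p = 0.117) in QSi5, which was called without pregnant array 4 (0.41, adjusted p = 0.0178). A second probe set rose by 1.22 in QSi5 (adjusted p = 9.1e-05) and by 1.66 in CBA/CaH (adjusted p = 8.51e-06), and quantile normalization gave 1.00 (adjusted p = 0.000222) and 1.15 (adjusted p = 8.61e-05) for the first. Another rose by 1.41 in CBA/CaH (adjusted p = 0.00661) and had a difference of 0.00 in QSi5 (adjusted p = 0.996).

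Cxcl2 was dim, at 3.41, 3.33 and 3.36 in lactating QSi5 mice, against 2.91, 3.00, 3.12, 3.80 and 3.39 in pregnant QSi5 mice. In CBA/CaH it read 3.57, 3.60 and 3.80 in lactating CBA/CaH mice, against 3.18, 3.46, 3.01, 3.05 and 3.38 in pregnant CBA/CaH mice, and the 10 AIL mice spanned 2.98 to 3.89 (median 3.38). The CBA/CaH groups were separate by a narrow gap. Its rise in CBA/CaH was 0.44 (SE 0.18, adjusted p = 0.0456) and held in 2 of the 8 fits that left out 1 array, and the difference in QSi5 was 0.12 (SE 0.18, adjusted p = 0.57).

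Cxcl5 and Cxcl15 were called in neither strain. Cxcl5, a ligand made by epithelium, read 3.13, 3.08 and 2.88 in lactating QSi5 mice, against 3.02, 2.88, 2.94, 3.11 and 2.64 in pregnant QSi5 mice. It read 3.00, 3.14 and 3.03 in lactating CBA/CaH mice, against 3.01, 3.09, 2.81, 2.87 and 3.04 in pregnant CBA/CaH mice, and the 10 AIL mice spanned 2.82 to 3.08 (median 2.94), all at the bottom of the scale. The differences were 0.11 (adjusted p = 0.457) and 0.09 (adjusted p = 0.545). Cxcl15, known from lung epithelium, read 5.42, 5.53 and 5.22 in lactating QSi5 mice, against 5.61, 5.07, 5.05, 6.35 and 5.77 in pregnant QSi5 mice. It read 5.33, 6.01 and 5.41 in lactating CBA/CaH mice, against 5.76, 5.90, 5.52, 5.43 and 5.43 in pregnant CBA/CaH mice, and the 10 AIL mice spanned 5.05 to 5.59 (median 5.33). Its differences were -0.18 (adjusted p = 0.56) and -0.03 (adjusted p = 0.936), while a dimmer probe set fell by 1.62 in QSi5 (adjusted p = 0.00252). Cxcl3, the last of the group, differed by 0.13 (SE 0.15, adjusted p = 0.49) in QSi5 and by 0.24 (SE 0.15, adjusted p = 0.193) in CBA/CaH.

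Among the inflammatory CC ligands, Ccl4 rose in both strains. Ccl4 is made by activated macrophages and T cells and attracts T cells and monocytes. It read 6.94, 6.74 and 6.57 in lactating QSi5 mice, against 5.96, 5.64, 5.81, 6.28 and 5.72 in pregnant QSi5 mice. It read 6.89, 6.50 and 6.71 in lactating CBA/CaH mice, against 5.79, 5.64, 6.22, 5.55 and 5.99 in pregnant CBA/CaH mice. The stages did not overlap. Ccl4 rose by 0.87 (SE 0.17, adjusted p = 0.000632) in QSi5 and by 0.86 (SE 0.17, adjusted p = 0.000878) in CBA/CaH. Its close relative Ccl3 differed by 0.30 (SE 0.13, adjusted p = 0.0595) in QSi5 and by 0.08 (SE 0.13, adjusted p = 0.627) in CBA/CaH.

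Ccl5, a product of T and NK cells, rested on 1 array. It read 7.21, 9.48 and 6.96 in lactating QSi5 mice, against 6.44, 5.97, 6.84, 7.02 and 6.20 in pregnant QSi5 mice. It read 6.86, 6.99 and 6.70 in lactating CBA/CaH mice, against 6.68, 6.03, 6.89, 7.63 and 7.02 in pregnant CBA/CaH mice. In QSi5, lactating arrays 1 (7.21) and 2 (9.48) lay above the highest pregnant value of that strain (7.02). The highest pregnant value of the series was 7.63, in CBA/CaH, and only lactating QSi5 array 2 exceeded it. The rise in QSi5 was 1.39 (SE 0.46, adjusted p = 0.0171) and was 0.59 (adjusted p = 0.156) without that array, while the difference in CBA/CaH was 0.00 (SE 0.46, adjusted p = 0.999). That array was also the one with the highest T and NK cell markers. The strain by stage interaction was 1.39 (adjusted p = 0.928).

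Ccl9, a macrophage ligand of Ccr1, read 7.47, 7.14 and 7.26 in lactating QSi5 mice, against 8.29, 6.97, 7.76, 8.36 and 8.45 in pregnant QSi5 mice. It read 7.82, 6.01 and 5.81 in lactating CBA/CaH mice, against 7.56, 8.50, 7.47, 8.17 and 7.40 in pregnant CBA/CaH mice. Lactating CBA/CaH array 1 lay within the pregnancy range and the other two far under it. Ccl9 fell by 1.27 (SE 0.42, adjusted p = 0.0193) in CBA/CaH, and the difference in QSi5 was -0.68 (SE 0.42, adjusted p = 0.176). The CBA/CaH value was -1.91 (adjusted p = 0.000872) without lactating array 1, -1.0 (adjusted p = 0.102) without array 2 and -0.90 (adjusted p = 0.125) without array 3. A dimmer second probe set of Ccl9, with a mean of 5.10, was not called in CBA/CaH (-0.39, adjusted p = 0.473) or in QSi5 (-0.56, adjusted p = 0.288). Ccl6, another macrophage ligand of Ccr1, read 6.35, 5.84 and 6.03 in lactating QSi5 mice, against 6.45, 5.69, 6.78, 8.37 and 6.31 in pregnant QSi5 mice. It read 6.21, 5.79 and 5.97 in lactating CBA/CaH mice, against 6.58, 6.34, 5.95, 7.92 and 6.50 in pregnant CBA/CaH mice. A single pregnant array of each strain, number 4, was far above its group. Neither difference was called, at -0.65 (SE 0.48, adjusted p = 0.255) in QSi5 and -0.66 (SE 0.48, adjusted p = 0.251) in CBA/CaH, and without pregnant QSi5 array 4 the QSi5 value was -0.23 (adjusted p = 0.578). Their receptor Ccr1 fell by 0.60 (SE 0.25, adjusted p = 0.0486) in QSi5 and differed by -0.21 (SE 0.25, adjusted p = 0.483) in CBA/CaH.

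The eosinophil genes split. Ccl11 (eotaxin), which stromal cells make, read 4.49, 4.93 and 4.85 in lactating QSi5 mice, against 5.47, 5.19, 5.53, 5.11 and 5.21 in pregnant QSi5 mice. It read 4.75, 4.90 and 4.76 in lactating CBA/CaH mice, against 5.92, 4.77, 5.30, 6.98 and 5.33 in pregnant CBA/CaH mice. Every group mean of Ccl11 was under 5.76. The groups were separate in QSi5 but overlapped in CBA/CaH, where pregnant array 4 was high. Ccl11 fell by 0.86 (SE 0.34, adjusted p = 0.0431) in CBA/CaH, or by 0.53 (adjusted p = 0.0534) without that array, and the difference in QSi5 was -0.54 (SE 0.34, adjusted p = 0.174). The CBA/CaH call held in only 3 of the 8 fits that left out 1 array, and was lost without pregnant array 1 or any 1 of the 3 lactating arrays as well. Ccl24, another ligand of Ccr3, rose by 0.44 (SE 0.16, adjusted p = 0.0261) in QSi5 and by 0.54 (SE 0.16, adjusted p = 0.0106) in CBA/CaH, with no overlap. Their receptor Ccr3 was near the floor. It read 4.06, 3.90 and 4.05 in lactating QSi5 mice, against 3.37, 3.25, 3.29, 3.35 and 3.41 in pregnant QSi5 mice. It read 3.81, 3.88 and 3.71 in lactating CBA/CaH mice, against 3.53, 3.34, 3.37, 3.19 and 3.55 in pregnant CBA/CaH mice. It rose by 0.67 (SE 0.11, adjusted p = 9.77e-05) in QSi5 and by 0.40 (SE 0.11, adjusted p = 0.00587) in CBA/CaH, where it was 0.16 (adjusted p = 0.219) after cyclic loess.

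The interferon-induced ligands of Cxcr3 and the receptor itself were not called higher in either strain. Of 4 genes, none was called in QSi5 and only Cxcl9 in CBA/CaH, beside 65.7% and 60.0% of all genes. Cxcl9 read 6.94, 7.48 and 6.99 in lactating QSi5 mice, against 7.54, 7.63, 7.79, 8.29 and 8.0 in pregnant QSi5 mice. It read 7.12, 7.22 and 6.95 in lactating CBA/CaH mice, against 8.55, 7.17, 8.01, 8.36 and 7.08 in pregnant CBA/CaH mice, and the 10 AIL mice spanned 6.38 to 7.54 (median 6.80). The lactation values lay in a narrow low band, apart from the pregnancy values in QSi5 but overlapping the lowest of them in CBA/CaH. Cxcl9 fell by 0.74 (SE 0.30, adjusted p = 0.0477) in CBA/CaH, a call that held in 2 of the 8 fits that left out 1 array, and differed by -0.71 (SE 0.30, adjusted p = 0.0504) in QSi5, which was called without pregnant array 1 (-0.79, adjusted p = 0.0456) or lactating array 2 (-0.89, adjusted p = 0.0426). In AIL mice, Cxcl9 was lower on arrays 4 and 5 of both codes (6.38 to 6.51) than on arrays 1 to 3 (6.59 to 7.54).

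Cxcl10, from the same gene cluster, read 5.32, 5.00 and 4.88 in lactating QSi5 mice, against 5.49, 5.12, 5.43, 5.19 and 5.47 in pregnant QSi5 mice. It read 4.96, 4.92 and 5.02 in lactating CBA/CaH mice, against 5.29, 4.87, 5.10, 5.20 and 4.69 in pregnant CBA/CaH mice, and the 10 AIL mice spanned 4.85 to 5.05 (median 4.93). The differences were -0.28 (SE 0.15, adjusted p = 0.129) in QSi5 and -0.06 (SE 0.15, adjusted p = 0.742) in CBA/CaH, but with array medians set equal the QSi5 value was -0.50 (adjusted p = 0.0163). Cxcl11 differed by 0.16 (SE 0.16, adjusted p = 0.383) and 0.35 (SE 0.16, adjusted p = 0.0666). The receptor Cxcr3, found on activated T cells, read 5.46, 5.86 and 5.75 in lactating QSi5 mice, against 5.55, 5.25, 5.72, 5.79 and 5.58 in pregnant QSi5 mice. It read 5.68, 5.92 and 5.72 in lactating CBA/CaH mice, against 5.68, 5.28, 5.79, 5.75 and 5.67 in pregnant CBA/CaH mice, and the 10 AIL mice spanned 5.23 to 6.32 (median 5.75). It differed by 0.11 (SE 0.15, adjusted p = 0.544) in QSi5 and by 0.14 (SE 0.15, adjusted p = 0.442) in CBA/CaH.

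Epithelial ligands and mucosal receptors held both rises and falls. Of 9 genes, 4 rose and 2 fell in QSi5, and 2 rose and 1 fell in CBA/CaH. Of all genes, 33.0% were called higher and 32.7% lower in QSi5, and 30.4% and 29.5% in CBA/CaH. Cxcl17, a ligand made by mucosal epithelium, read 7.71, 7.97 and 7.48 in lactating QSi5 mice, against 5.82, 6.15, 6.03, 6.27 and 6.71 in pregnant QSi5 mice. It read 9.01, 7.82 and 7.88 in lactating CBA/CaH mice, against 5.88, 6.10, 6.65, 6.17 and 6.03 in pregnant CBA/CaH mice, and the 10 AIL mice spanned 7.11 to 8.93 (median 7.76). Every lactation array of every group lay above every pregnancy array. Cxcl17 rose by 1.53 (SE 0.26, adjusted p = 0.00018) in QSi5, which is 2.88-fold, and by 2.07 (SE 0.26, adjusted p = 1.78e-05) in CBA/CaH, which is 4.2-fold. This was the largest rise of the 43 genes in both strains and held in all alternatives and with each array left out.

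Ccl25, the ligand of Ccr9 in the small intestine and thymus, read 5.81, 5.57 and 5.68 in lactating QSi5 mice, against 5.14, 4.99, 4.91, 4.8 and 5.71 in pregnant QSi5 mice. It read 5.67, 6.50 and 6.08 in lactating CBA/CaH mice, against 5.34, 5.69, 5.31, 5.27 and 5.53 in pregnant CBA/CaH mice, and the 10 AIL mice spanned 5.60 to 6.04 (median 5.89). The stages overlapped in both strains. Ccl25 rose by 0.58 (SE 0.20, adjusted p = 0.0234) in QSi5, not called without lactating array 1 (0.52, adjusted p = 0.0855) or 3 (0.58, adjusted p = 0.0551), and by 0.65 (SE 0.20, adjusted p = 0.0138) in CBA/CaH, not called without lactating array 2 (0.45, adjusted p = 0.102). Ccr9, its receptor on gut-homing lymphocytes, was dim. It read 4.23, 4.12 and 4.12 in lactating QSi5 mice, against 3.57, 3.59, 3.85, 3.60 and 3.72 in pregnant QSi5 mice. It read 3.61, 3.90 and 4.04 in lactating CBA/CaH mice, against 3.82, 3.58, 3.96, 3.72 and 3.62 in pregnant CBA/CaH mice, and the 10 AIL mice spanned 3.73 to 4.67 (median 4.29). It rose by 0.49 (SE 0.12, adjusted p = 0.0035) in QSi5, which was 0.15 (adjusted p = 0.374) after cyclic loess, and differed by 0.11 (SE 0.12, adjusted p = 0.461) in CBA/CaH. Of its 4 dimmer probe sets, all rose in QSi5 and 2 in CBA/CaH, by 0.53 (adjusted p = 0.004) and 0.46 (adjusted p = 0.0349), while the others gave 0.36 (adjusted p = 0.196) and 0.18 (adjusted p = 0.373) there.

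Ccl20, the ligand of Ccr6, read 6.16, 5.82 and 5.96 in lactating QSi5 mice, against 5.97, 5.68, 5.95, 6.09 and 6.31 in pregnant QSi5 mice. It read 5.91, 5.94 and 6.01 in lactating CBA/CaH mice, against 6.19, 6.59, 6.51, 6.64 and 6.44 in pregnant CBA/CaH mice, and the 10 AIL mice spanned 5.46 to 6.01 (median 5.76). Pregnant CBA/CaH mice were above every lactating mouse, and pregnant QSi5 array 5 overlapped their lowest value. Ccl20 fell by 0.53 (SE 0.14, adjusted p = 0.00652) in CBA/CaH and differed by -0.02 (SE 0.14, adjusted p = 0.921) in QSi5, with a strain by stage interaction of 0.51 (adjusted p = 0.868). Ccr6, which B cells and T helper 17 cells carry, read 5.35, 7.18 and 5.26 in lactating QSi5 mice, against 4.75, 4.85, 4.92, 4.68 and 4.65 in pregnant QSi5 mice. It read 5.66, 5.76 and 6.06 in lactating CBA/CaH mice, against 4.95, 4.8, 5.23, 5.35 and 5.10 in pregnant CBA/CaH mice, and the 10 AIL mice spanned 5.16 to 5.66 (median 5.40). Lactating QSi5 array 2 was again the highest. Ccr6 rose by 1.16 (SE 0.31, adjusted p = 0.00533) in QSi5, which was 0.53 (adjusted p = 0.0127) without that array, and differed by 0.74 (SE 0.31, adjusted p = 0.0583) in CBA/CaH.

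Cxcl14, an epithelial ligand, read 7.34, 6.83 and 7.51 in lactating QSi5 mice, against 8.0, 8.05, 7.37, 8.10 and 8.27 in pregnant QSi5 mice. It read 7.43, 7.54 and 7.39 in lactating CBA/CaH mice, against 7.71, 7.29, 7.82, 8.33 and 7.80 in pregnant CBA/CaH mice, and the 10 AIL mice spanned 7.01 to 8.14 (median 7.45). Both strains had some overlap. Cxcl14 fell by 0.73 (SE 0.23, adjusted p = 0.0117) in QSi5, which was -0.53 (adjusted p = 0.0832) without lactating array 2 and -0.08 (adjusted p = 0.777) after quantile normalization, and differed by -0.33 (SE 0.23, adjusted p = 0.22) in CBA/CaH. Its second probe set fell by 1.26 in QSi5 (adjusted p = 0.00308).

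Cxcl16, made in membrane-bound form by macrophages and epithelium, depended on the probe set. The brighter one read 7.07, 7.35 and 6.88 in lactating QSi5 mice, against 8.06, 7.02, 8.05, 6.68 and 7.98 in pregnant QSi5 mice. It read 7.81, 7.04 and 6.99 in lactating CBA/CaH mice, against 7.42, 7.73, 7.77, 8.02 and 7.41 in pregnant CBA/CaH mice, and the 10 AIL mice spanned 7.01 to 7.76 (median 7.46). Neither difference passed the test, at -0.46 (SE 0.31, adjusted p = 0.209) in QSi5 and -0.39 (SE 0.31, adjusted p = 0.289) in CBA/CaH, but without pregnant QSi5 array 4 the QSi5 difference of Cxcl16 was called (-0.68, adjusted p = 0.0338). The other, with a mean of 6.71, fell by 2.72 in QSi5 (adjusted p = 7.92e-05) and by 1.73 in CBA/CaH (adjusted p = 0.00335). Cxcr6, the receptor of Cxcl16 on T and NKT cells, was dim. It read 4.51, 4.74 and 3.98 in lactating QSi5 mice, against 3.85, 3.87, 4.56, 3.72 and 4.57 in pregnant QSi5 mice. It read 4.11, 4.06 and 4.27 in lactating CBA/CaH mice, against 4.01, 3.82, 4.00, 4.81 and 3.72 in pregnant CBA/CaH mice. Its differences were 0.30 (SE 0.26, adjusted p = 0.332) in QSi5 and 0.08 (SE 0.26, adjusted p = 0.82) in CBA/CaH.

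Markers of epithelium and fat moved beside these genes. Of 12 luminal epithelial markers, 9 fell and 2 rose in each strain, with median differences of -2.25 in QSi5 and -1.81 in CBA/CaH. Their log2 sums were 13.71 to 13.77 in lactating QSi5 mice and 14.48 to 15.28 in pregnant ones, and 13.58 to 13.92 in lactating CBA/CaH mice and 14.38 to 15.01 in pregnant ones. Of 9 myoepithelial markers, 8 fell in QSi5 and 7 in CBA/CaH, with sums of 12.47 to 13.21 against 14.04 to 14.31 in QSi5 and of 12.76 to 13.70 against 13.56 to 14.20 in CBA/CaH. Of 9 white adipocyte markers, 4 fell in QSi5 and 7 in CBA/CaH, and 1 rose in each, with sums of 14.14 to 14.32 against 14.08 to 14.64 in QSi5 and of 13.84 to 14.33 against 13.76 to 15.18 in CBA/CaH. At lactation 1 myoepithelial marker had a mean under 5.76 in each strain, and 1 white adipocyte marker in CBA/CaH only. Their part in the changes of the epithelial ligands was not tested.

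Genes of the same chromosome did not always move together, and the distances between them were not examined. Of all genes, 33.0% rose and 32.7% fell in QSi5, and 30.4% and 29.5% in CBA/CaH. Of those with a mean under 6, 50.6% rose in QSi5 and 46.6% in CBA/CaH. On chromosome 8, Ccl17, Ccl22 and Ccl25, all with means under 6, rose in both strains. Of 10 ligands on chromosome 5, 2 rose in QSi5 and none fell, and 4 rose and 1 fell in CBA/CaH. Of 8 receptors on chromosome 9, all but Ccr2 with means under 6, 5 rose and 1 fell in QSi5 and 4 rose in CBA/CaH. Of 13 genes on chromosome 11, which are CC ligands apart from Ccr7 and Cxcl16, 6 rose in QSi5 and none fell, and 3 rose and 2 fell in CBA/CaH.

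Genes that act with chemokines were described as lists. Of all genes, 33.0% rose and 32.7% fell in QSi5, and 30.4% rose and 29.5% fell in CBA/CaH. Of 13 other chemokines and scavenging or atypical receptors, 3 rose and 2 fell in QSi5 and 5 rose and 1 fell in CBA/CaH. Ackr3, which takes up Cxcl12, was 1.33 higher in CBA/CaH (adjusted p = 0.00744), with a difference of 0.68 (adjusted p = 0.127) in QSi5, opposite in sign to Cxcl12 and Cxcr4. Ackr4, which takes up Ccl25 and the Ccr7 ligands, rose by 0.95 in QSi5 (adjusted p = 0.00012) and by 0.84 in CBA/CaH (adjusted p = 0.000456). Ackr2, which clears inflammatory CC ligands, rose by 0.70 (adjusted p = 0.000206) and 0.45 (adjusted p = 0.00637).

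Of 19 genes of receptor signalling, 7 rose and 7 fell in QSi5 and 5 rose and 7 fell in CBA/CaH. Arrb1, an arrestin that shuts off and takes up receptors, fell by 4.09 in QSi5 (adjusted p = 1.44e-09) and by 3.48 in CBA/CaH (adjusted p = 8.51e-09). Gnb1, a G protein subunit, fell by 1.99 (adjusted p = 6.4e-08) and fell by 1.75 (adjusted p = 3.26e-07). Dock2, which leukocytes need to migrate, rose by 0.98 (adjusted p = 0.000395) and 0.63 (adjusted p = 0.0102).

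Of 14 cytokines and genes of the NF-kappaB pathway, which switches on many inflammatory chemokines, 6 rose and 5 fell in each strain. Their log2 sums were 12.4 to 12.68 in lactating QSi5 mice and 13.36 to 13.63 in pregnant ones. In CBA/CaH they were 12.45 to 12.67 at lactation and 13.31 to 13.56 at pregnancy. At lactation 5 of the 14 had means under 5.76 in QSi5 and 6 in CBA/CaH. Tnf rose by 0.70 in QSi5 (adjusted p = 0.0021) and by 0.83 in CBA/CaH (adjusted p = 0.000734), and Il1b by 0.70 (adjusted p = 0.000321) and 0.81 (adjusted p = 0.00013). Relb, an NF-kappaB subunit, fell by 2.84 (adjusted p = 3.28e-07) and 3.01 (adjusted p = 2.71e-07), and Tnfaip3, an inhibitor of the pathway, fell by 2.74 (adjusted p = 1.07e-07) and fell by 2.37 (adjusted p = 6.68e-07). Of 10 interferon response genes, 5 fell and none rose in QSi5 and 3 fell and 1 rose in CBA/CaH. Gbp2, induced by interferon gamma as Cxcl9 is, fell by 1.90 (adjusted p = 9.13e-07) and 1.51 (adjusted p = 1.17e-05).

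The second comparison was of the strains. At pregnancy, Ccl27a was the only 1 of the 43 genes called, beside 1.22% of all genes (0.77% higher), and it was higher in QSi5. Its groups did not overlap, as for 2.3% of all genes. Ccl27a is known as a skin ligand of Ccr10. It read 5.15, 5.38, 5.35, 4.8 and 5.16 in pregnant QSi5 mice, against 3.60, 3.71, 3.74, 3.41 and 3.73 in pregnant CBA/CaH mice. At lactation the values were 4.26, 4.40 and 3.95 in QSi5 mice and 4.02, 3.74 and 4.04 in CBA/CaH mice, and the 10 AIL mice spanned 3.95 to 4.22 (median 4.06). Pregnant QSi5 mice thus stood above every other mouse of the series. The strain difference was 1.53 (SE 0.13, adjusted p = 4.38e-06) at pregnancy, 2.89-fold, and 0.27 (SE 0.17, adjusted p = 1.0) at lactation. Ccl27a fell by 0.96 (SE 0.15, adjusted p = 7.76e-05) at lactation in QSi5 and differed by 0.29 (SE 0.15, adjusted p = 0.111) in CBA/CaH.

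The interaction of strain and stage, called for 0.0989% of all genes (0.044% positive and 0.055% negative), was called for Ccl27a alone of the 43, at -1.26 (adjusted p = 0.0291). That call was lost in 10 of the 16 fits that left out 1 array, with values of -1.29 to -1.13 and adjusted p up to 0.125, with a replicate block (adjusted p = 0.0603) and after removal of the 6 arrays that stand apart (-1.42, adjusted p = 0.0558). Those 10 fits left out QSi5 pregnant array 1, 2 or 3 or lactating array 1 or 3, and CBA/CaH pregnant array 1, 2 or 4 or lactating array 1 or 3. Every group mean of this probe set was under 5.76. Its type of probe set can match near-identical copies, and 2 more probe sets for Ccl27 carry several symbols, so the level may come from more than 1 gene. A sequence difference between the strains under the probes was not tested.

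At lactation, limma called none of the 43 genes between QSi5 and CBA/CaH, beside 0.346% of all genes, and Ccr9 alone had an unadjusted p under 0.05. The groups of Ccl7, Ccr3, Ccr9 and Cxcl2 did not overlap, 4 of 43, beside 13.3% of all genes. Ccl7, Ccr3 and Ccr9 were higher in QSi5, by 0.31, 0.20 and 0.30, and Cxcl2 was lower, by 0.29, each with an adjusted p of 0.94 or more. The 3 arrays a group limit the precision.

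The third comparison set the intercross mice against each parental strain at lactation. Of the 43 genes, 13 were called against QSi5, 2 higher and 11 lower in AIL mice, and 13 against CBA/CaH, 4 higher and 9 lower. Of all genes, 37.9% were called against QSi5 (19.4% higher, 18.5% lower) and 34.2% against CBA/CaH (18.0% higher, 16.2% lower). The genes' share of higher calls was 4.65% and 9.30%, and of lower calls 25.6% and 20.9%. Calls went with signal level here as well. Of all genes with a mean under 6, 27.4% were lower against QSi5 and 23.7% against CBA/CaH, and 3.65% and 3.48% higher. Of the 28 chemokine and receptor genes at those levels, 7 and 6 were lower and 1 was higher in each comparison. Of the other 15, 4 and 3 were lower and 1 and 3 higher. All genes at 6 or over had 10.8% and 9.57% lower and 33.0% and 30.7% higher. The 13 calls against QSi5 were 8 without lactating QSi5 array 2, and the 13 against CBA/CaH were 7 without lactating CBA/CaH array 3. Both comparisons use the same AIL arrays, and the parental lactation arrays also enter the stage comparison, so calls in them are not independent. The AIL and parental values did not overlap for 5 of the 43 genes against QSi5, beside 24.0% of all genes, and for 12 against CBA/CaH, beside 21.5%.

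The Gapdh 3' minus 5' value was 0.537 to 0.80 in AIL mice and 1.119 to 2.02 in parental lactating mice, with no overlap. With that value as a covariate, limma called none of the 43 genes in either comparison. Whether the arrays were made in 1 run is not stated. RNA quality or handling and line cannot be told apart here.

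Ccr2 had the smallest adjusted p of the 43 genes in both comparisons. It read 6.96, 6.93, 6.89, 6.97 and 6.91 in AQ mice and 7.02, 7.15, 6.85, 6.99 and 7.06 in AC mice, all under the 6 parental lactation values (7.56 to 8.07) and above every pregnancy value. Ccr2 was lower in AIL mice by 0.81 (SE 0.10, adjusted p = 1.67e-05) than in QSi5 and by 0.90 (SE 0.10, adjusted p = 5.5e-06) than in CBA/CaH. Its 3 dimmer probe sets gave -0.57 (adjusted p = 0.0066), -0.16 (adjusted p = 0.302) and -0.19 (adjusted p = 0.276) against QSi5, and -0.24 (adjusted p = 0.231), -0.18 (adjusted p = 0.242) and -0.25 (adjusted p = 0.156) against CBA/CaH. The mean of the Ccr2 probe sets was -0.43 (adjusted p = 0.000529) against QSi5 and -0.39 (adjusted p = 0.00115) against CBA/CaH.

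Cxcl13 read 5.97, 6.34, 6.09, 6.17 and 6.18 in AQ mice and 6.26, 6.29, 5.97, 5.83 and 5.95 in AC mice, again under all 6 parental values (6.55 to 7.64). The difference was -0.85 (SE 0.17, adjusted p = 0.000839) against QSi5, or -0.51 (adjusted p = 0.00827) without lactating QSi5 array 2, and -0.68 (SE 0.17, adjusted p = 0.00482) against CBA/CaH. Ccr7 read 4.61, 4.36, 4.43, 4.37 and 4.59 in AQ mice and 4.17, 4.53, 4.17, 4.45 and 4.28 in AC mice. Its difference of -0.63 (SE 0.17, adjusted p = 0.00687) against QSi5 was -0.29 (adjusted p = 0.102) without lactating QSi5 array 2, and that against CBA/CaH was -0.53 (SE 0.17, adjusted p = 0.0205), lost without lactating CBA/CaH array 2 (-0.45, adjusted p = 0.0989) or 3 (-0.51, adjusted p = 0.0782).

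**Figure D5:**
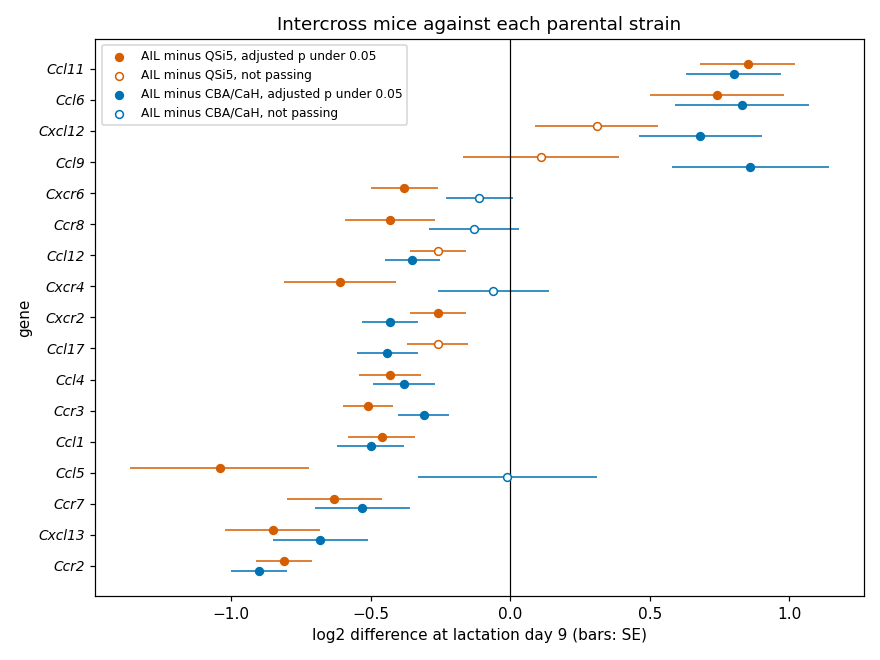
For the 17 genes called in either comparison, the log2 difference of AIL minus QSi5 (orange) and AIL minus CBA/CaH (blue) at lactation day 9 is drawn with bars of 1 SE, filled where the adjusted p was under 0.05. Ccl11 and Ccl6 are about 0.8 higher in AIL mice against both strains, Ccr2 and Cxcl13 are 0.68 to 0.90 lower against both, and Ccl5 passed the test against QSi5, where the value is -0.25 without 1 array.

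Several genes with a rise at lactation were lower in AIL mice than in the parental strains. Ccl1 read 5.46, 5.47, 5.59, 5.35 and 5.74 in AQ mice and 5.48, 5.37, 5.32, 5.51 and 5.33 in AC mice, -0.46 (SE 0.12, adjusted p = 0.00699) against QSi5 and -0.50 (SE 0.12, adjusted p = 0.00412) against CBA/CaH. The first call was lost without lactating QSi5 array 1 (-0.31, adjusted p = 0.087). Ccl4 read 6.27, 6.35, 6.23, 6.58 and 6.36 in AQ mice and 6.31, 6.39, 6.26, 6.26 and 6.22 in AC mice, -0.43 (SE 0.11, adjusted p = 0.0047) against QSi5 and -0.38 (SE 0.11, adjusted p = 0.0111) against CBA/CaH. The second was lost without lactating CBA/CaH array 1 (-0.28, adjusted p = 0.0896).

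Ccl17 read 5.62, 5.79, 5.80, 5.73 and 5.73 in AQ mice and 5.79, 5.74, 5.73, 5.93 and 5.75 in AC mice. Ccl17 was -0.44 against CBA/CaH (adjusted p = 0.00536), or -0.25 (adjusted p = 0.0813) without lactating CBA/CaH array 3, and -0.26 (SE 0.11, adjusted p = 0.0697) against QSi5, which was not called. Ccr3 read 3.59, 3.55, 3.52, 3.48 and 3.57 in AQ mice and 3.48, 3.62, 3.30, 3.32 and 3.45 in AC mice, below all 6 parental values. Its differences were -0.51 (SE 0.09, adjusted p = 0.000308) against QSi5 and -0.31 (SE 0.09, adjusted p = 0.0138) against CBA/CaH, the second lost without lactating CBA/CaH array 2 (-0.27, adjusted p = 0.071).

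Cxcr2 read 5.69, 5.58, 5.80, 5.55 and 5.64 in AQ mice and 5.94, 5.83, 5.64, 5.70 and 5.71 in AC mice. It was -0.43 (SE 0.10, adjusted p = 0.0027) against CBA/CaH. Against QSi5 it was -0.26 (SE 0.10, adjusted p = 0.0452), which held in only 3 of the 13 fits that left out 1 array, those without AC array 1 or 2 or AQ array 3. Ccl12 read 4.09, 4.09, 3.99, 4.10 and 4.01 in AQ mice and 4.16, 4.07, 4.00, 4.14 and 3.89 in AC mice, which was -0.35 (SE 0.10, adjusted p = 0.0148) against CBA/CaH, or -0.25 (adjusted p = 0.135) without lactating CBA/CaH array 3, and -0.26 (SE 0.10, adjusted p = 0.0548) against QSi5, which was called without lactating QSi5 array 2 (-0.34, adjusted p = 0.0421).

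A further 4 genes were called lower against QSi5 and not against CBA/CaH, which does not show that the 2 comparisons differ. Ccl5 read 6.92, 6.73, 7.19, 6.85 and 6.72 in AQ mice and 6.95, 6.91, 6.69, 6.66 and 6.80 in AC mice. Its difference of -1.04 (SE 0.32, adjusted p = 0.0176) was -0.25 (adjusted p = 0.192) without lactating QSi5 array 2, and -0.01 (SE 0.32, adjusted p = 0.988) against CBA/CaH. Cxcr4 read 3.32, 3.56, 3.61, 3.61 and 3.45 in AQ mice and 3.74, 3.81, 3.79, 3.96 and 3.99 in AC mice. It was -0.61 (SE 0.20, adjusted p = 0.0256) against QSi5, -0.14 (adjusted p = 0.404) without that array, and -0.06 (SE 0.20, adjusted p = 0.837) against CBA/CaH, so the low level of Cxcr4 at lactation was also found in AIL mice.

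Cxcr6 read 4.11, 3.94, 4.01, 4.14 and 3.93 in AQ mice and 4.15, 3.97, 3.93, 4.14 and 4.03 in AC mice. Its -0.38 (SE 0.12, adjusted p = 0.0235) against QSi5 was -0.33 (adjusted p = 0.11) without lactating QSi5 array 1, -0.21 (adjusted p = 0.238) without array 2 and -0.59 (adjusted p = 0.000747) without array 3. Ccr8 read 4.04, 3.99, 4.06, 3.96 and 3.65 in AQ mice and 3.53, 4.33, 3.78, 3.45 and 3.77 in AC mice. It was -0.43 (SE 0.16, adjusted p = 0.0404) against QSi5, a call that held in 5 of the 13 fits that left out 1 array, and -0.27 (adjusted p = 0.268) without lactating QSi5 array 1. Against CBA/CaH the differences were -0.11 for Cxcr6 (adjusted p = 0.511) and -0.13 for Ccr8 (adjusted p = 0.576).

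Higher calls in AIL mice, at the probe set that stands for each gene, were of Ccl11 and Ccl6 against both strains and of Cxcl12 and Ccl9 against CBA/CaH. Other probe sets gave further ones. A second probe set of Cxcl14, with a mean of 7.41, was higher by 1.32 (adjusted p = 1.42e-05) than in QSi5 and by 0.97 (adjusted p = 0.000288) than in CBA/CaH, while the brighter differed by 0.24 (adjusted p = 0.293) and 0.01 (adjusted p = 0.973). One of Cxcl1 was higher by 0.54 (adjusted p = 0.0043) than in QSi5 and differed by 0.12 (adjusted p = 0.533) from CBA/CaH.

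Ccl11 read 6.0, 5.74, 5.96, 5.28 and 5.22 in AQ mice and 5.65, 5.66, 5.94, 5.41 and 5.20 in AC mice, all above the 6 parental lactation values (4.49 to 4.93). Arrays 4 and 5 of both codes were lower in Ccl11 (5.20 to 5.41) than arrays 1 to 3 (5.65 to 6.0). Ccl11 was higher by 0.85 (SE 0.17, adjusted p = 0.00104) than in QSi5 and by 0.80 (SE 0.17, adjusted p = 0.00171) than in CBA/CaH, and stayed called with each array left out. Ccl6 read 6.85, 6.93, 7.23, 6.65 and 6.72 in AQ mice and 7.18, 7.02, 7.49, 6.13 and 5.97 in AC mice. It was higher by 0.74 (SE 0.24, adjusted p = 0.0229) than in QSi5 and by 0.83 (SE 0.24, adjusted p = 0.0145) than in CBA/CaH, and AC arrays 4 and 5 were its lowest. The QSi5 call was lost without lactating QSi5 array 2 (0.63, adjusted p = 0.12) or 3 (0.72, adjusted p = 0.0663), and the CBA/CaH call without lactating CBA/CaH array 2 (0.73, adjusted p = 0.0743) or 3 (0.81, adjusted p = 0.0574).

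Cxcl12 read 7.20, 7.25, 7.67, 7.24 and 7.29 in AQ mice and 7.16, 7.13, 7.60, 7.37 and 7.19 in AC mice, above all lactating CBA/CaH mice (6.54 to 6.74) and under all pregnant CBA/CaH mice. It was higher than in CBA/CaH by 0.68 (SE 0.22, adjusted p = 0.0228), lost without lactating CBA/CaH array 1 (0.67, adjusted p = 0.0646) or 3 (0.63, adjusted p = 0.0943), and 0.31 (SE 0.22, adjusted p = 0.274) against QSi5, or 0.76 (adjusted p = 0.00323) without lactating QSi5 array 2. The other Cxcl12 probe sets gave 0.12 (adjusted p = 0.794) against QSi5 and 0.64 (adjusted p = 0.139) against CBA/CaH for one, and -0.42 (adjusted p = 0.0185) and -0.38 (adjusted p = 0.0323), lower in AIL mice, for the dimmest. Ccl9 read 7.58, 7.41, 7.64, 7.42 and 7.46 in AQ mice and 7.69, 7.25, 7.55, 6.86 and 7.19 in AC mice. It was 0.86 (SE 0.28, adjusted p = 0.0246) against CBA/CaH, where the value was 1.5 (adjusted p = 6.81e-06), 0.59 (adjusted p = 0.18) and 0.49 (adjusted p = 0.249) without lactating CBA/CaH array 1, 2 and 3, and 0.11 (SE 0.28, adjusted p = 0.777) against QSi5. The dimmer Ccl9 probe set was not called against CBA/CaH (0.60, adjusted p = 0.0621) and was higher than in QSi5 by 0.77 (adjusted p = 0.0176).

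Marker lists differed in AIL mice. Of 11 fibroblast and matrix markers, 8 were higher than in QSi5 and 7 than in CBA/CaH, and none was lower, with log2 sums of 12.71 to 13.38 in AQ mice and 12.67 to 13.25 in AC mice, against 11.52 to 12.55 in lactating QSi5 mice and 11.79 to 11.82 in lactating CBA/CaH mice. Of 11 macrophage and monocyte markers, 6 were higher than in QSi5 and 8 than in CBA/CaH, with sums of 11.96 to 12.18 and 11.78 to 12.01, against 11.35 to 11.82 and 11 to 12.89. Of 12 T and NK cell markers, 7 were lower than in QSi5 and 1 than in CBA/CaH, with sums of 9.75 to 9.93 and 9.71 to 9.88, against 9.99 to 10.67 and 9.97 to 10.06. Their part in the differences of the ligands and receptors was not tested.

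The last comparison was between the AIL codes. Limma called none of the 43 genes between AQ and AC, and none of all 18193 genes (0.0%), with 1 of the 43 at an unadjusted p under 0.05. That gene was Cxcr3, at -0.39 in AQ against AC (unadjusted p = 0.0073, adjusted p = 1.0). Of the 43 genes, the AQ and AC values failed to overlap for Cxcr4 alone, beside 0.566% of all genes. Cxcr4 was -0.35 in AQ against AC (unadjusted p = 0.0942), at levels among those of olfactory receptor genes.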

How the data were processed

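Each of 26 samples was hybridised to 1 Affymetrix mouse expression array, from RNA of frozen inguinal glands. The deposited values are log2 intensities after RMA by the authors, per the submitters' processing notes. The RMA software, the chip definition and whether all arrays were processed together are not given in the sources used here. The log2 values ran from 2.34 to 15.1 and array medians from 4.9957 to 5.2974, and no read depth applies to arrays.

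Of 45101 probe sets, 64 were controls, and 45037 were tested. Probe sets were named from the platform annotation: 34945 had 1 symbol, 932 several and 9160 none. The members and lists were chosen with earlier results of these data known. Limma 3.58.1 in R 4.3.3 (lmFit, eBayes) was fitted once to the 16 parental arrays and once to the 16 lactation arrays. Benjamini-Hochberg adjusted p-values ran over all 45037 probe sets, and a call is an adjusted p under 0.05. Percentages of all genes are over 18193 genes, each at its brightest probe set. The scripts were tested on simulated data. Replicates are separate samples in the labels, so p-values measure the spread between these samples.

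Values are named for the genes called in both strains with the largest differences (8 highest, and the 2 lower), those called in any strain or AIL comparison, and a fixed set of further members. Alternatives were filters on low values, other variance and normalization settings, other sets of arrays, covariates, other choices of probe set, a replicate block and each array left out. Figures were drawn with matplotlib 3.10.9.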

Additional observations from a re-analysis of the deposited data

Results flagged for a closer look

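In 8 of 144 groups of 4 to 10 arrays, 1 array lay far from the others of its group. Chance alone flags about 1 in 20 groups. On pregnant QSi5 array 4, Ccl8 was 9.45 while the other 4 arrays spanned 6.81 to 7.38, and Cxcr5 was 4.39 while they spanned 3.48 to 3.68. That array has the highest Gapdh 3' minus 5' value of the series, 6.497. Ccl8 was 7.32 on AIL AC array 3, against 6.91 to 6.98. On AIL AQ array 3, Cxcl12 was 7.67, against 7.20 to 7.29, and Cxcl14 was 7.01, against 7.38 to 7.52. Ccr8 was 3.65 on AIL AQ array 5, against 3.96 to 4.06. Cxcr3 was 5.28 on pregnant CBA/CaH array 2, against 5.67 to 5.79, and Cxcr6 was 4.81 on pregnant CBA/CaH array 4, against 3.72 to 4.01.

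The stage difference of Ccl27a in QSi5 minus that in CBA/CaH was -1.26 (limma, adjusted p = 0.0291), the only interaction called among the 43 genes.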

How the results depend on the processing

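At lactation against pregnancy, 24 genes were called in QSi5 and 22 in CBA/CaH, and the CBA/CaH count was 13 after cyclic loess. With each array left out the counts were 19 to 27 and 14 to 22. Setting array medians equal moved the median difference of all genes from 0.04 to -0.18 in QSi5 and from 0.05 to -0.12 in CBA/CaH, and the calls split into 14 higher and 7 lower in QSi5 and 10 higher and 6 lower in CBA/CaH. Cyclic loess split them into 13 higher and 6 lower in QSi5. For Cxcl13 in CBA/CaH, the probe set with the largest spread gave -0.09 (adjusted p = 0.918).

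Between strains at pregnancy, 1 gene was called, 0 among probe sets with a mean of at least 5 (Ccl27a is under that filter), 2 with all 26 arrays in 1 fit or array weights, and 1 to 2 with each array left out. The interaction count of 1 was 0 with that filter, without the arrays that stand apart or with a replicate block, and 0 to 1 with each array left out.

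Between AIL mice and QSi5, the count of 13 was 7 after cyclic loess (2 higher, 5 lower), 0 with the Gapdh covariate and 8 to 14 with each array left out. Equal medians gave 3 higher and 7 lower. Against CBA/CaH, the count of 13 was 0 with the Gapdh covariate and 7 to 15 with each array left out, and equal medians gave 6 higher and 6 lower. Ccl17 against CBA/CaH was 0.09 (adjusted p = 0.885) with the Gapdh covariate. The cause of these changes was not tested.

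Array numbers are not taken to pair the samples, since not every same-number correlation was over 0.1. Between parental groups they ran from -0.426 to 0.124, and between AQ and AC they were 0.144, 0.007, 0.165, 0.316 and 0.244, where 3 of 5 AQ arrays correlated best with their own number. With AIL arrays 1 to 3 and 4 to 5 as a factor, 14 genes were called against QSi5, 13 against CBA/CaH and 0 between AQ and AC. With a replicate block, 22 genes were called for stage in QSi5 and 21 in CBA/CaH, 1 for strain at pregnancy, 0 at lactation, 12 for AIL against QSi5, 13 against CBA/CaH and 0 for AQ against AC. Levels under 5.76 limit what a fall or rise can show.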
